A study of Homo sapiens and Mus musculus with 12 samples.

Results

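The interleukin-1 (IL-1) family ligands and receptors examined here are 8 genes, chosen by name and not by any measured value: the ligands *IL1A*, *IL1B*, *IL18* and *IL33*, the antagonist *IL1RN*, and the receptor chains *IL1R1*, *IL1RAP* and *IL1RL1*. All 8 had an identifier among the 63677 gene identifiers counted in the human line, and their 8 mouse counterparts of the same name had one among the 47729 counted in the mouse line. Their transcripts were counted in 12 sequencing libraries, 3 for each combination of cell line and treatment, and the question was which of them differ between drug and solvent. MDA-MB-231 is a human triple-negative breast cancer cell line, and 4T1 is a mouse mammary carcinoma cell line. Both carried no engineered change (genotype WT), grew alone in DMEM with 10% FBS, and received either 1 μM ponatinib, a kinase inhibitor that blocks many tyrosine kinases, or its solvent DMSO for 24 h. The cultures hold tumor cells without the leukocytes and stroma of a tumor, each line stands for 1 tumor, and the sources used here do not say whether the 3 libraries of a group came from separate cultures, so a *P* value measures only the spread between these libraries.

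IL-1α (*IL1A*) and IL-1β (*IL1B*) bind the same receptor, IL1R1, which then recruits the accessory protein IL1RAP and signals through MYD88 and the IRAK kinases to NF-κB and AP-1. The antagonist made from *IL1RN* occupies IL1R1 without that recruitment. IL-33 signals through IL1RL1 (also called ST2) with the same accessory chain, whereas IL-18 has a receptor pair of its own. IL-1β and IL-18 are made as inactive precursors that inflammasome caspases cut, so that a transcript level says nothing of how much active cytokine a cell releases. In tumors, IL-1 made by the cancer cells is known for inducing chemokines that draw in myeloid cells.

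The DMSO libraries of MDA-MB-231 held 15642659 to 16294543 counts and the ponatinib libraries 15012884 to 17301760, and in 4T1 the totals were 18586137 to 18951493 and 17800675 to 18855423. Levels are given as CPM, that is counts scaled to a common library size after TMM scaling of the totals, where 3 counts, the upper limit that a count of 0 allows, correspond to 0.153 to 0.199 CPM. Such limits and all intervals on counts cover counting error only. The 7 to 8 leukocyte markers examined, among which *PTPRC* (CD45) is the defining one, summed to 0.692 to 2.23 CPM in MDA-MB-231 and to 1.23 to 2.44 CPM in 4T1. *PTPRC* was at 0 in all 6 libraries of MDA-MB-231, and *Ptprc* had 6 counts with DMSO and 2 with ponatinib in 4T1. In MDA-MB-231 the sum was 0.692 to 0.971 CPM with DMSO and 1.59 to 2.23 CPM with ponatinib, where *CSF1R* went from 34 to 89 counts. Both lines carried keratin RNA, with the 8 epithelial markers summing to 2035 to 3788 CPM in MDA-MB-231, where *CDH1* (E-cadherin) had 1 count in all 6 libraries, and to 7898 to 9095 CPM in 4T1.

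In MDA-MB-231, *IL1B* fell 39.0-fold with ponatinib and *IL1A* fell 7.55-fold, whereas *IL18* rose 1.34-fold. In 4T1, *Il1a* fell 6.23-fold, *Il1rl1* 8.33-fold, *Il33* 1.65-fold, *Il1rn* 1.61-fold and *Il1r1* 1.29-fold, and *Il18* rose 4.64-fold. A smaller rise of *Il1rap* in 4T1 depended on the test used. *IL1RN* and *IL33* were listed at 0 in MDA-MB-231, and *Il1b* was close to 0 in 4T1.

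*IL1A* and *IL1B* are neighbors and are read from the same strand in both species. In human (hg38) *IL1A* (ENSG00000115008) lies at chr2:112773925-112784493 and *IL1B* (ENSG00000125538) at chr2:112829751-112836816, both on the minus strand, with a gap of 45.3 kb. In mouse (GRCm39) *Il1a* (ENSMUSG00000027399) lies at chr2:129140291-129152098 and *Il1b* (ENSMUSG00000027398) at chr2:129206490-129213059, also on the minus strand and 54.4 kb apart. Because the human pair fell together, and because *Il1a* and *Il1rl1* fell most in 4T1, 250 bases before a transcript start of each of these genes are shown here. Letters that match a searched motif are in capitals. For mouse genes the start is that of the canonical transcript. The start used for *Il1rl1* lies inside its annotated gene span (chr1:40468730-40504575), as does that for *IL1B* inside the span given above. The human sequences are from RefSeq (GRCh38.p14, chr2:112836780-112837029 for *IL1B* and chr2:112784494-112784743 for the more upstream of 2 *IL1A* starts, minus strand), and the mouse sequences are from the GRCm39 genome (chr2:129152099-129152348, minus strand, for *Il1a*, and chr1:40478537-40478786, plus strand, for *Il1rl1*).
IL1B: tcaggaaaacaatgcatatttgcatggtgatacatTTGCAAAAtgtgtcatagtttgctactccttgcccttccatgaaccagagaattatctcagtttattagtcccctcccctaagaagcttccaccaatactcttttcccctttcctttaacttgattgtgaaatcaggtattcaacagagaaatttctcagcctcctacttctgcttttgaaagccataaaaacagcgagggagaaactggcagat
IL1A: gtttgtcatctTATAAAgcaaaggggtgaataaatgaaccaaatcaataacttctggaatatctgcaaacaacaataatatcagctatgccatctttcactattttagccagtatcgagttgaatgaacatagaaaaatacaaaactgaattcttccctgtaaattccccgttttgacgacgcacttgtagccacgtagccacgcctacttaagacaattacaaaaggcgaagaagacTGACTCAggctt
Il1a: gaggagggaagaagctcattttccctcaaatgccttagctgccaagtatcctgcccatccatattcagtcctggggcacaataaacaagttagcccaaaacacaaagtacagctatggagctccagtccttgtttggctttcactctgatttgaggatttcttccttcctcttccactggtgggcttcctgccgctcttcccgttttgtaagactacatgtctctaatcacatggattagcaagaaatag
Il1rl1: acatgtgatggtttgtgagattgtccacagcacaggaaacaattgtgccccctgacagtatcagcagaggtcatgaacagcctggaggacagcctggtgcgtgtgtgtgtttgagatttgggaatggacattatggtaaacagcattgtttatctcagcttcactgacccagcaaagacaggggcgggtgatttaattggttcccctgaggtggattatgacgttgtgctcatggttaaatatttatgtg
Windows of 300 bases (250 before and 50 after the start) were searched on both strands for the AP-1 motif, spelled TGANTCA, and for the cyclic AMP motif spelled TGACGTCA. The same windows were searched for the C/EBP motif, spelled TTGCNNAA, for the box spelled TATAAA, and for the κB motif by its name. The *IL1B* window held 1 C/EBP match. The *IL1A* window shown held 1 TATA match, at base -239, and 2 AP-1 matches, the second of which starts at base 39 after the start. Among the other members, *IL1RN*, *IL1RL1* and *Il1rn* also had an AP-1 match in a window, and *Il1r1* had a κB match. Among 35116 human windows, 10.5% held a C/EBP match, 7.71% an AP-1 match and 11.5% a TATA match. The *Il1a* and *Il1rl1* windows held none of the 5 motifs, and the *Il1b* window held a TATA match at base -31. Only the canonical start was searched for each mouse gene, so the bases before the *Il1rl1* gene span were not searched. Of the 21770 mouse windows, 13.2% held a TATA match at any position, 7.14% an AP-1 match and 4.87% a κB match.

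*IL1B* was the most abundant of the 8 transcripts in DMSO-treated MDA-MB-231. Its DMSO libraries stood at 309, 327 and 326 CPM (4655, 5051 and 5177 counts), and its ponatinib libraries at 8.45, 8.35 and 7.83 CPM (134, 131 and 143 counts). Every ponatinib library was far below every DMSO library, and the spread within each group was small beside the gap. The mean went from 320.5 ± 10.2 to 8.21 ± 0.333 CPM (SD, n = 3 libraries in each group, as throughout), a log2 fold change of -5.29 with a standard error of 0.09 and an adjusted *P* of 1.52e-11 (edgeR quasi-likelihood test). Of 14610 genes tested in this line, *IL1B* had rank 5 from the lowest log2 fold change. Of the same genes, 0.664% had a log2 fold change of -2 or below at an adjusted *P* under 0.05.

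*IL1A*, the ligand that is active without caspase cleavage, was at 21.8, 21.6 and 17.2 CPM with DMSO and at 2.46, 2.61 and 2.90 CPM with ponatinib. The groups did not overlap, which was also true of 60.4% of the genes tested in MDA-MB-231. The log2 fold change was -2.92 (SE 0.16), with a 95% interval of -3.26 to -2.57 and an adjusted *P* of 6.71e-08, and *IL1A* ranked 39 among the falls. Because *IL1B* fell further than *IL1A*, the share of *IL1B* in the sum of both, each per kb of exon, went from 91.4 ± 1.16% to 67.4 ± 2.74%.

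*IL18* (ENSG00000150782, chr11:112143253-112164096, minus strand) went the other way. It was at 49.6, 44.7 and 47.1 CPM with DMSO and at 69.5, 62.1 and 57.3 CPM with ponatinib. The lowest ponatinib library was above the highest DMSO library, and the log2 fold change was 0.42 (SE 0.09, adjusted *P* 0.00262). Each per kb of exon, the ratio of *IL18* to *IL1B* was 0.170 ± 0.0142 with DMSO and 8.85 ± 0.570 with ponatinib.

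The antagonist *IL1RN* (ENSG00000136689, chr2:113099315-113134016, plus strand) and the alarmin *IL33* (ENSG00000137033, chr9:6215786-6257983, plus strand) were listed at 0 in all 6 MDA-MB-231 libraries, and no fold change can be given. The identifiers matched to *IKBKG*, a gene that most cells use, and to *OTUD7B* were at 0 in the same libraries, so a 0 in these files need not mean that a transcript was missing.

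The receptor chains were low in MDA-MB-231. *IL1R1* (ENSG00000115594, chr2:102064544-102179874, plus strand), the signaling receptor for IL-1α and IL-1β, had 15, 19 and 19 counts with DMSO and 20, 30 and 32 with ponatinib, or 1.14 ± 0.127 and 1.64 ± 0.339 CPM. Its groups did not overlap, but the log2 fold change of 0.52 (95% interval -0.12 to 1.17) did not pass the test (adjusted *P* 0.154). *IL1RAP* (ENSG00000196083, chr3:190514051-190659750, plus strand), the shared accessory chain, was at 4.71, 5.25 and 4.09 CPM with DMSO and 3.15, 4.20 and 4.16 CPM with ponatinib. These groups overlapped, and the log2 fold change of -0.28 (95% interval -0.70 to 0.14) had an adjusted *P* of 0.238. *IL1RL1* (ENSG00000115602, chr2:102311502-102352037, plus strand), the IL-33 receptor, had 4, 6 and 8 counts with DMSO and 0, 3 and 0 with ponatinib. At this depth it did not enter the test, and the DMSO level was 6.44 times the ponatinib level with a counting interval of 1.88 to 34.1. The annotated span of *IL1RL1* overlaps *IL18R1* on the same strand, and how reads in the shared part were counted is not given in the sources used here.

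In MDA-MB-231, 5 of the 8 genes could be tested, of which 2 fell, 1 rose and 2 were not called at an adjusted *P* under 0.05. Among all 14610 genes tested, 26.8% fell, 27.2% rose and 54.0% were called in either direction, so a call by itself was common in this experiment and the sizes of the *IL1B* and *IL1A* falls were not.

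**Figure D1:**
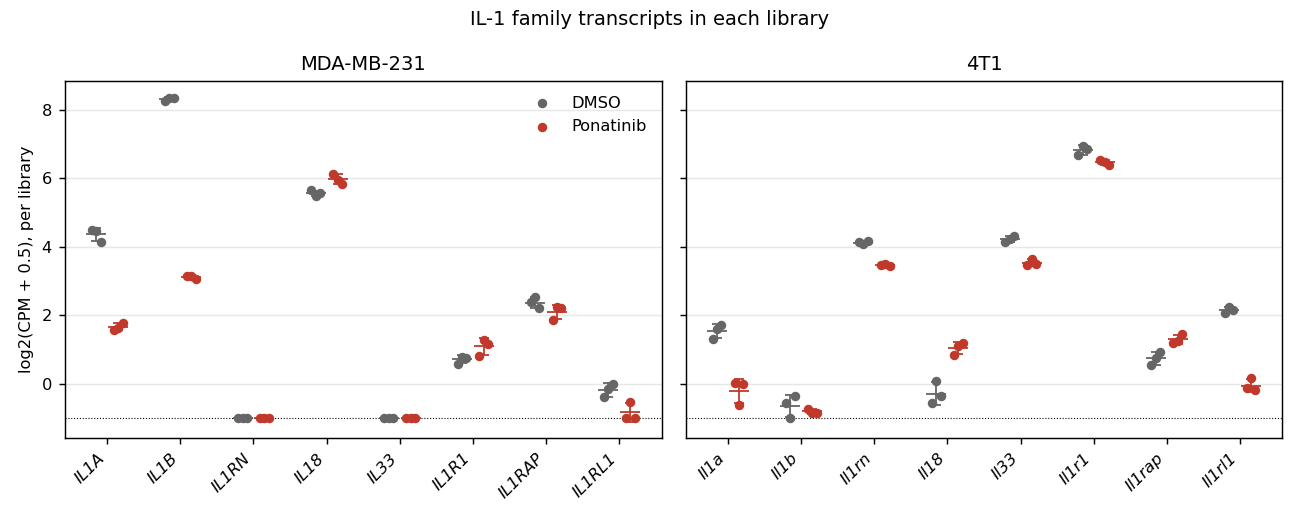
Level of each of the 8 genes in each library, as log2(CPM + 0.5) on the vertical axis, for the human line (left panel) and the mouse line (right panel), with DMSO in grey and ponatinib in red; points are libraries, the bars are the mean ± SD of 3, and the dotted line marks 0 counts. *IL1B* stands apart at 309 to 327 CPM in DMSO-treated MDA-MB-231 and falls to 7.83 to 8.45 CPM, whereas *Il1b* in 4T1 lies near the line of 0 counts in all 6 libraries.

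In 4T1, *Il1a* was the IL-1 agonist transcript that was detected above a few counts. Its DMSO libraries had 35, 45 and 51 counts (1.98, 2.50 and 2.79 CPM), and its ponatinib libraries had 10, 3 and 9 counts (0.511, 0.155 and 0.488 CPM). The 2 groups were well apart, and the log2 fold change was -2.64 (SE 0.38, 95% interval -3.44 to -1.84, adjusted *P* 3.06e-05). *Il1a* passed the filter on low counts through its DMSO libraries alone, so its being tested was not independent of its fall.

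*Il1b* had 3, 0 and 5 counts with DMSO and 2, 1 and 1 with ponatinib and was not tested. The ratio of DMSO to ponatinib was 2.13 with a counting interval of 0.570 to 9.66, so neither a fall as large as that of *Il1a* nor the lack of any change could be told at this depth. The lncRNA *Gm14023* is annotated across *Il1a* and *Il1b* on the opposite strand with 25 counts over the 6 libraries, and *Il1bos* across *Il1b* with 18. Whether the counting used the strand is not given in the sources used here, so reads of these genes and of *Il1b* cannot be kept apart with certainty.

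*Il1rn* (ENSMUSG00000026981, chr2:24226865-24241506, plus strand), which encodes the receptor antagonist, was at 17.0, 16.5 and 17.3 CPM with DMSO and 10.6, 10.7 and 10.3 CPM with ponatinib. The replicates lay close together, and the log2 fold change was -0.68 (SE 0.11, adjusted *P* 0.000104). *Il1a* fell further than its antagonist on the same scale. The ratio of *Il1rn* to *Il1a* per kb of exon was 4.48 ± 0.786 with DMSO and ranged from 13.0 to 43.7 over the ponatinib libraries, where it rests on the 3 to 10 counts of *Il1a*.

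*Il33* (ENSMUSG00000024810, chr19:29902483-29938933, plus strand), an alarmin stored in the nucleus and released from damaged cells, had 305, 330 and 356 counts with DMSO and 205, 233 and 199 counts with ponatinib (18.4 ± 1.09 and 11.1 ± 0.825 CPM). This fall was about that of *Il1rn* in size, with a log2 fold change of -0.73 (SE 0.12, adjusted *P* 8.77e-05). *Il18* (ENSMUSG00000039217, chr9:50466081-50493633, plus strand) was the ligand that rose, from 3, 10 and 5 counts with DMSO to 25, 32 and 33 with ponatinib. Its log2 fold change was 2.21 (SE 0.41, 95% interval 1.34 to 3.09, adjusted *P* 0.000310), and it passed the filter through the ponatinib libraries alone. In CPM it went from 0.333 ± 0.200 to 1.57 ± 0.265, still a low level. Of the genes tested in 4T1, 2.49% had a log2 fold change of 2 or above at an adjusted *P* under 0.05. *Bco2*, on the opposite strand, overlaps its annotated span and had 37 counts over the 6 libraries.

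The IL-1 receptor *Il1r1* (ENSMUSG00000026072, chr1:40264174-40356417, plus strand) was the most abundant of the 8 transcripts in 4T1. It was at 102, 123 and 116 CPM with DMSO and at 92.2, 89.6 and 84.0 CPM with ponatinib. The groups did not overlap, as for 63.4% of the genes tested in this line, and the fall was small, with a log2 fold change of -0.36 (SE 0.08, adjusted *P* 0.00162).

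*Il1rl1* (ENSMUSG00000026069, chr1:40468730-40504575, plus strand), which lies 112 kb from *Il1r1*, had the largest fall of the 7 genes tested in 4T1. It went from 66, 76 and 72 counts (3.97 ± 0.242 CPM) to 8, 12 and 7 counts (0.470 ± 0.131 CPM). Its log2 fold change of -3.06 (SE 0.28, 95% interval -3.66 to -2.45, adjusted *P* 4.28e-07) was at rank 61 of the falls among 13286 genes tested. Of these genes, 1.20% had a log2 fold change of -2 or below at an adjusted *P* under 0.05. *Il1rl1* passed the filter through the DMSO libraries alone.

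*Il1rap* (ENSMUSG00000022514, chr16:26400350-26548880, plus strand) had 17, 21 and 26 counts with DMSO and 35, 36 and 41 with ponatinib. Each ponatinib library was above each DMSO library, and the log2 fold change of 0.72 (SE 0.28, 95% interval 0.13 to 1.31) passed the edgeR test narrowly, with an adjusted *P* of 0.0368. DESeq2 gave a log2 fold change of 0.71 with an adjusted *P* of 0.147, and the call was also lost without the filter on low counts (adjusted *P* 0.0510). It was lost as well when DMSO library 1 or 2 or ponatinib library 1, 2 or 3 was left out, with adjusted *P* values of 0.0519 to 0.124 and log2 fold changes of 0.59 to 0.78.

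Of the 8 genes, 7 were tested in 4T1, of which 5 fell and 2 rose. Over all genes tested in this line, 29.4% fell, 29.5% rose and 59.0% were called in either direction. The smallest *P* that an exact permutation test of 3 against 3 libraries can give is 0.1, which was the value for each of the 12 genes tested in one line or the other except *IL1RAP* (exact permutation *P* 0.3).

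**Figure D2:**
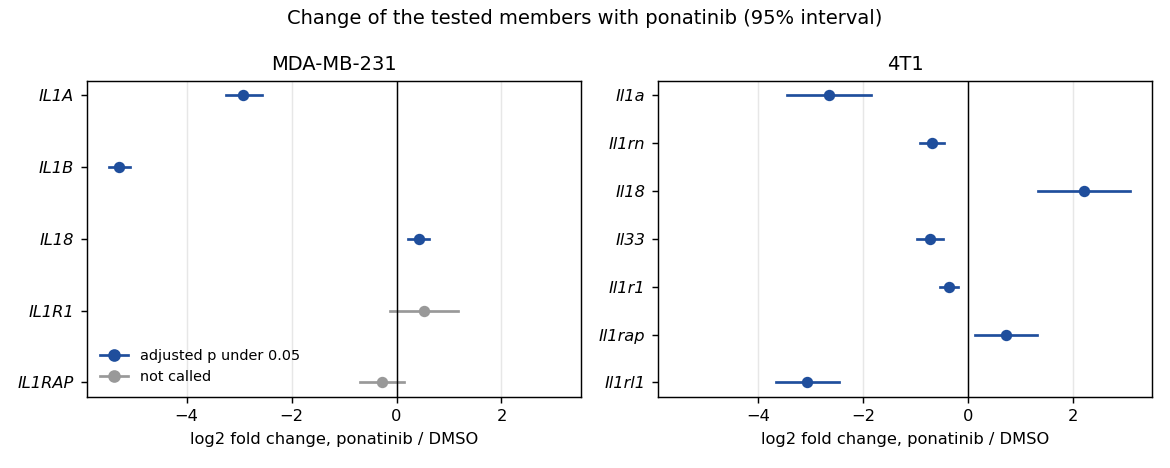
Log2 fold change of ponatinib over DMSO (horizontal axis) for the genes that were tested, 5 of MDA-MB-231 on the left and 7 of 4T1 on the right, with bars for the 95% interval; blue marks an adjusted *P* under 0.05 and grey a gene not called. The interval of *IL1B*, -5.48 to -5.09, lies far below all others, and the intervals of *IL1A*, *Il1a* and *Il1rl1* lie between -3.66 and -1.84.

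To set the genes side by side, levels were divided by the length of their merged exons. In MDA-MB-231 treated with DMSO, *IL1B* was at 107 ± 3.39 CPM per kb, *IL18* at 18.1 ± 0.946, *IL1A* at 10.0 ± 1.29, *IL1RAP* at 0.418 ± 0.0516, *IL1R1* at 0.160 ± 0.0178 and *IL1RL1* at 0.0671 ± 0.0207 CPM per kb. No neighbors in this order overlapped within 1 SD of their means, apart from the 2 genes at 0. With ponatinib *IL18* came first at 24.2 ± 2.37 CPM per kb, followed by *IL1B* at 2.73 ± 0.111 and *IL1A* at 1.32 ± 0.111. The share of *IL18* in the summed level of the 8 genes was 13.4% with DMSO and 83.9% with ponatinib, and that of *IL1B* was 78.8% and 9.48%.

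The order in 4T1 was headed by a receptor and not by a ligand. With DMSO, *Il1r1* was at 16.7 ± 1.58 CPM per kb, *Il1rn* at 3.06 ± 0.0749, *Il33* at 2.97 ± 0.176, *Il1a* at 0.696 ± 0.117 and *Il1rl1* at 0.576 ± 0.0351 CPM per kb. *Il1rn* and *Il33* overlapped within 1 SD, as did *Il1a* and *Il1rl1*, and the lowest 3 (*Il18*, *Il1rap* and *Il1b*, at 0.111, 0.0775 and 0.0568 CPM per kb) overlapped with one another. With ponatinib *Il1r1* stayed first at 13.0 ± 0.613 CPM per kb, with *Il1rn* at 1.90 ± 0.0406 and *Il33* at 1.80 ± 0.133 again overlapping. *Il18* moved to the fourth place at 0.523 ± 0.0880, above *Il1rap*, *Il1a* and *Il1rl1*, and its range did not overlap that of *Il1rap*. The lines were counted against different annotations, so their levels were not tested against each other.

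**Figure D3:**
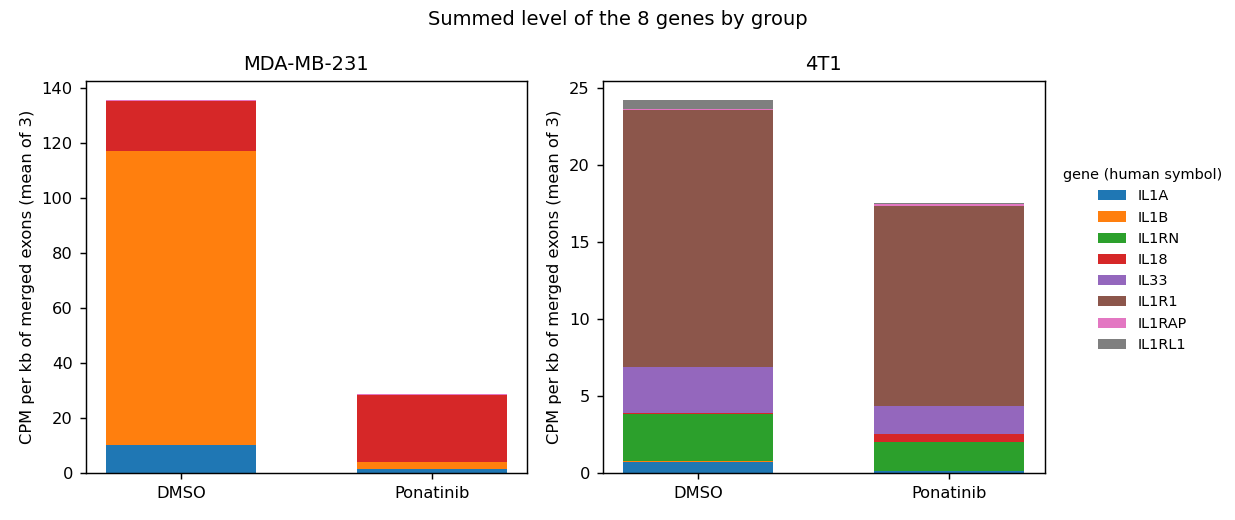
Mean CPM per kb of merged exons of the 8 genes (vertical axis, a separate scale for each line), stacked by gene for DMSO and ponatinib, the human line on the left and the mouse line on the right; each bar is the sum of means of 3 libraries. *IL1B* makes up 78.8% of the first bar and 9.48% of the second, and *Il1r1* makes up 68.9% and 74.0% of the bars of 4T1.

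The response itself was compared between the lines as the interaction of line and treatment over 12488 genes of the same name in both species, of which 41.9% differed. Differences are given as the log2 fold change of the human line minus that of the mouse line. *IL1A* was not called (difference -0.21, SE 0.46, 95% interval -1.18 to 0.77, adjusted *P* 0.788). That interval is wide, so it does not show that *IL1A* fell alike in both. *IL18* rose in both lines and less in MDA-MB-231 (difference -1.72, SE 0.35, adjusted *P* 0.000600). This difference rests on low counts of *Il18* in 4T1, 3 to 10 per library with DMSO and 25 to 33 with ponatinib. For *IL1R1* the difference was 0.96 (SE 0.25, 95% interval 0.44 to 1.48, adjusted *P* 0.00430), where the fall in 4T1 was called by itself and the value of 0.52 in MDA-MB-231 was not. The difference for *IL1RAP* was -0.93 (SE 0.32, 95% interval -1.59 to -0.26, adjusted *P* 0.0244), and it was no longer called when DMSO library 2 or ponatinib library 1 of MDA-MB-231 was left out (adjusted *P* 0.0600 and 0.0535). *IL1B* gave a difference of -4.20 (SE 1.06, adjusted *P* 0.00347), which rests on the 0 to 5 counts per library of *Il1b* in 4T1. *IL1B* passed the filter of this comparison through the MDA-MB-231 libraries, so its being compared was not independent of its level there. *IL1RL1*, which passed the same filter through the 4T1 DMSO libraries, was not called (difference 0.57, SE 1.34, adjusted *P* 0.798), and *IL1RN* and *IL33* could not be compared.

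Other members of the family were mostly low. Of the 14 further ligands and receptors listed, 4 were tested in MDA-MB-231, where *IL18R1*, a chain of the IL-18 receptor, fell (log2 fold change -1.35, adjusted *P* 0.00198), *SIGIRR*, which dampens IL-1 receptor signaling, rose from 14.3 ± 2.28 to 31.2 ± 1.79 CPM (1.12, adjusted *P* 1.49e-05), and 2 were not called. In 4T1, 5 of 13 were tested. *Il18rap*, the other chain of the IL-18 receptor, fell from 72.1 ± 6.32 to 28.2 ± 2.75 CPM (-1.35, adjusted *P* 3.21e-08) and *Il1rl2*, the IL-36 receptor, fell at 53 counts against 18 (-1.62, adjusted *P* 0.0103), whereas *Sigirr* rose from 50.8 ± 2.99 to 75.6 ± 5.93 CPM (0.57, adjusted *P* 4.40e-05). *Il1rl2* entered the test through its DMSO libraries (12 to 27 counts, against 3 to 10 with ponatinib), was not tested when at least 10 counts were required in every library, and 1 of the 2 falls in 4T1 was lost without DMSO library 3. *IL18R1* and *Il1rl2* have means under 5 CPM and were singled out after their values were seen. Over all genes tested, 54.0% were called in MDA-MB-231 and 59.0% in 4T1, so the numbers called do not set this list apart. The tested genes of this list had a median log2 fold change of -0.27 in the human line and -0.37 in the mouse line, beside 0.02 and -0.00 over all genes.

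Of the genes that cut or release the precursors, 14 of 18 were tested in MDA-MB-231, of which 4 fell, 5 rose and 5 were not called, with a median of 0.18. Over all genes tested there, 26.8% fell and 27.2% rose, so these counts do not set the list apart. *NLRP3*, the inflammasome sensor, fell from 48.6 ± 1.58 to 6.31 ± 1.32 CPM (log2 fold change -2.94, adjusted *P* 2.12e-08), while *CASP1*, the protease that cuts IL-1β and IL-18, rose from 301 to 598 counts summed over 3 libraries (0.89, adjusted *P* 0.000128). *CASP4*, a caspase that senses lipopolysaccharide in the cytosol, fell by 0.79 on the log2 scale (adjusted *P* 8.56e-06), and *CAPN1*, a calpain of the kind that cuts the IL-1α precursor, rose by 0.66 (adjusted *P* 2.62e-05). In 4T1, 13 of 16 were tested, with 2 lower, 4 higher, 7 not called and a median of 0.16, beside 29.4% lower and 29.5% higher over all genes. *P2rx7*, the ATP-gated channel that triggers IL-1β release, fell from 32.5 ± 1.36 to 3.03 ± 0.236 CPM (-3.42, adjusted *P* 3.87e-11), and *Capn1* rose from 49.4 ± 0.502 to 81.5 ± 2.10 CPM (0.72, adjusted *P* 1.22e-06). *Casp4* (0.98, adjusted *P* 2.28e-05) and *Panx1*, a membrane channel (0.48, adjusted *P* 0.00242), rose as well. *Casp1* and *Pycard* had no more than 1 count in any 4T1 library and were not tested. The number of genes that rose in MDA-MB-231 was 3 with DESeq2 and 2 to 3 when DMSO library 2 or 3 or ponatinib library 2 was left out, and the number that fell in 4T1 was 1 without DMSO library 2 or ponatinib library 3.

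For the cascade below the receptors the calls were split in both lines. Of its 19 genes, 18 were tested in MDA-MB-231, of which 5 fell, 3 rose (5 with the replicate number as a block) and 10 were not called, with a median of -0.09, beside 54.0% of all genes called in either direction. *IRAK1*, a kinase recruited by MYD88, fell from 342 ± 16.9 to 211 ± 8.87 CPM (log2 fold change -0.70, adjusted *P* 1.18e-05). *UBE2N*, which builds the ubiquitin chains that TRAF6 uses, fell by 1.19 on the log2 scale (adjusted *P* 9.58e-07), *CHUK* (IKKα) fell by 0.74 (adjusted *P* 0.000771), and *PELI2*, a ubiquitin ligase for IRAK kinases, rose by 1.60 (adjusted *P* 1.58e-05). In 4T1 all 19 were tested, with 7 lower, 5 higher, 7 not called and a median of -0.02, beside 59.0% of all genes called. *Irak1* (-0.47, adjusted *P* 9.03e-05), *Peli1* (-0.65, adjusted *P* 0.000269), *Chuk* (-0.62, adjusted *P* 4.92e-05) and *Map3k3* (-0.55, adjusted *P* 0.000583) fell. Leaving out DMSO library 2 or 3 of MDA-MB-231 left 3 that fell there, and leaving out DMSO library 2 or 3 or ponatinib library 3 of 4T1 left 4 that fell and 3 that rose.

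Of the inhibitors of the signal, 9 of 10 were tested in MDA-MB-231, of which 3 fell, 2 rose and 4 were not called (median -0.06), close to the 54.0% of all genes called in this line. *TOLLIP*, which holds IRAK1 inactive, rose from 131 ± 10.4 to 175 ± 8.53 CPM (0.42, adjusted *P* 0.00111) and *TRAFD1* rose (0.64, adjusted *P* 8.68e-05), while the deubiquitinase *CYLD* (-0.76, adjusted *P* 5.21e-05) and *PELI1* (-0.47, adjusted *P* 0.0390) fell. In 4T1, 9 of 10 were tested, of which 4 fell, 3 rose and 2 were not called (median -0.14), beside 59.0% of all genes called. *Zc3h12a*, a ribonuclease that degrades cytokine mRNA, rose from 34.9 ± 0.741 to 57.8 ± 2.30 CPM (0.73, adjusted *P* 2.63e-06), and *Tnip1* (0.49, adjusted *P* 2.93e-05) and *Trafd1* (0.42, adjusted *P* 0.00531) rose, whereas *Peli1*, listed here too, fell.

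Genes that IL-1 is known to induce fell for the most part in MDA-MB-231. Of 31 with an identifier, 25 were tested, of which 19 fell, 3 rose and 3 were not called, with a median log2 fold change of -1.32, beside 26.8% of all genes that fell and a median of 0.02 over them. *HAS2*, a hyaluronan synthase, fell from 20.0 ± 2.06 to 0.347 ± 0.192 CPM (-5.84, adjusted *P* 9.51e-09), *CSF3* (G-CSF) from 30.7 ± 1.52 to 0.749 ± 0.280 CPM (-5.36, adjusted *P* 2.82e-09), *PTGS2* (COX-2) from 41.8 ± 3.90 to 3.80 ± 0.851 CPM (-3.46, adjusted *P* 1.50e-08) and the neutrophil chemokine *CXCL8* from 366 ± 40.8 to 34.7 ± 5.68 CPM (-3.40, adjusted *P* 4.90e-09). The 3 that rose, named after their values were seen, were *LCN2* (2.64), *PTGES* (1.31) and *NFKBIA* (0.44). *HAS2* (4 to 9 counts per library with ponatinib) and *LCN2* (7 to 10 with DMSO) entered the test through the group where they are high. So did *CSF3*, with 9 to 17 counts per library with ponatinib and 449 to 495 with DMSO. With at least 10 counts required in every library, 16 genes of this list fell in MDA-MB-231 and 2 rose. In 4T1, 25 of 29 were tested, of which 14 fell, 8 rose and 3 were not called, with a median of -0.37, beside 29.4% of all genes that fell and 29.5% that rose. *Csf2* (GM-CSF) fell from 76.2 ± 5.28 to 9.06 ± 1.16 CPM (-3.07, adjusted *P* 2.66e-11), the collagenase *Mmp13* from 147 ± 14.1 to 18.6 ± 3.19 CPM (-2.98, adjusted *P* 5.59e-11), *Ptgs2* from 1094 ± 22.5 to 147 ± 14.1 CPM (-2.90, adjusted *P* 8.19e-12) and the chemokine *Cxcl2* from 41.1 ± 5.08 to 8.67 ± 0.913 CPM (-2.24, adjusted *P* 2.57e-09). The 8 that rose in 4T1 were named after their values were seen. They were *Ccl2* (1.44), *Icam1* (1.18), *Vcam1* (1.15), *Birc3* (1.11), *Ccl20* (0.87), *Nfkbia* (0.80), *Sod2* (0.71) and *Cxcl5* (0.47). Many genes of this list also answer to other stimuli. The list also holds *CXCL1* and *CXCL2*, the genes the study follows, so its count is not independent evidence of a direction.

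**Figure D4:**
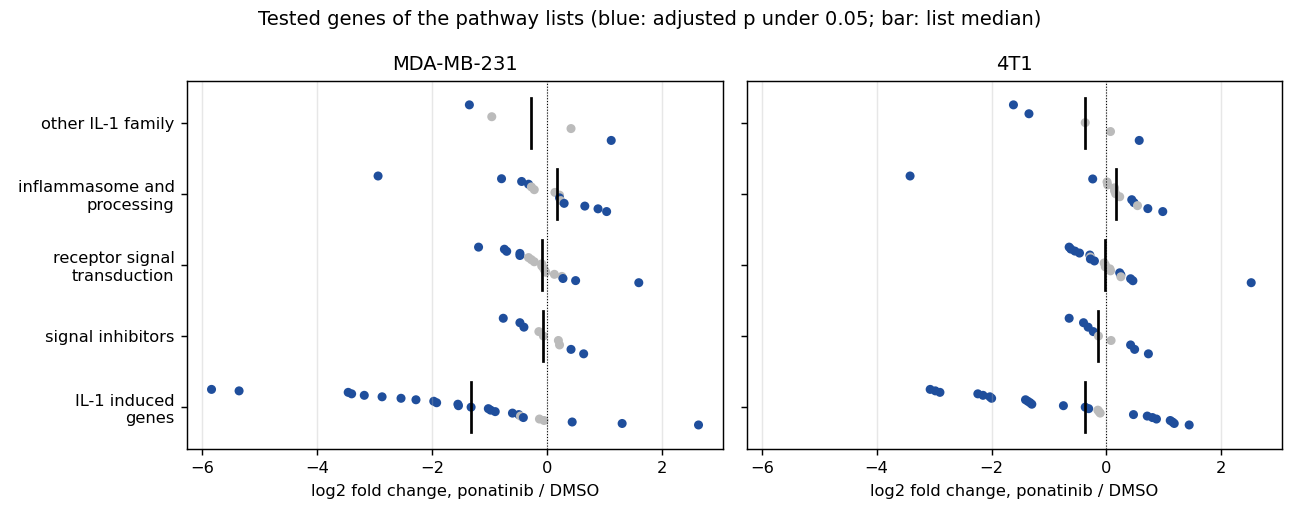
Log2 fold change of ponatinib over DMSO (horizontal axis) of each tested gene in 5 lists of the IL-1 pathway, the human line on the left and the mouse line on the right; blue points have an adjusted *P* under 0.05, grey points do not, and black bars are list medians. The IL-1 induced genes have medians of -1.32 and -0.37, and the other lists have medians between -0.37 and 0.18.

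Markers of cell state moved in the same libraries. In MDA-MB-231 the 4 mesenchymal-type markers summed to 1907 to 2067 CPM with DMSO and 1282 to 1445 CPM with ponatinib, the 8 epithelial markers to 2035 to 2481 and 2987 to 3788 CPM, and the 5 fibroblast markers to 26.4 to 31.5 and 81.0 to 87.7 CPM. In 4T1 the mesenchymal-type markers summed to 6741 to 7676 and 4652 to 5080.0 CPM, and the epithelial sums overlapped (7898 to 9095 and 8037 to 8852 CPM). The members of these lists did not move together. Among the epithelial markers of MDA-MB-231, *KRT8* and *KRT7* (log2 fold change 0.88 each) and *EPCAM* (0.41) rose. *KRT18*, *KRT19* and *KRT14* were not called there, and *CDH1* and *KRT5* were not tested. Of its fibroblast markers, *COL1A1* (1.43) and *PDGFRB* (4.33, from 21 to 464 counts) rose, and *DCN*, *LUM* and *PDGFRA* were not tested. *FN1* rose in MDA-MB-231 (log2 fold change 0.75) while *VIM* (-0.66), *CD44* (-0.77) and *ZEB1* (-0.50) fell, and in 4T1 *Fn1* fell from 3414 to 969.5 CPM while *Vim* was at 3257 and 3605 CPM and was not called. The 5 fibroblast markers of 4T1 summed to 6.67 to 7.55 CPM with DMSO and 9.51 to 10.2 CPM with ponatinib. Of these, *Col1a1* rose (log2 fold change 1.26), while *Pdgfra* (-0.88) and *Pdgfrb* (39 counts with DMSO and 0 with ponatinib) fell. The 4 endothelial markers of 4T1 summed to less in each ponatinib library (from 1.03 CPM) than in any DMSO library (3.22 to 5.20 CPM). The part of these shifts in the changes of the IL-1 family genes was not tested, and in bulk RNA fewer cells with a transcript and less of it per cell cannot be told apart. The endothelial markers of MDA-MB-231 summed to at most 6.02 CPM in any library.

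The genes whose profile over the 6 libraries of MDA-MB-231 was most like that of *IL1B* were *ESM1*, *KRTAP2-3*, *CSF3*, *HAS2* and *IL11*, at distances of 0.452 to 1.81 beside a median of 6.30 over the 9492 genes compared (Euclidean distance of centered log2(CPM + 0.5)). *ESM1* went from 110.2 to 3.26 CPM, a log2 fold change of -5.08. In 4T1, *Il1rl1* and *Il1a* fell most but were under the minimum of 10 CPM set for this comparison, so *Il33* was used. Its fall was small (log2 fold change -0.73), so its distances cannot be set beside those of *IL1B*. *Il33* was most like *Hspa9*, *Tbpl1*, *Orc2*, *Arf4* and *Hsp90b1*, at distances of 0.0853 to 0.110 beside a median of 0.886 over 9441 genes. These distances describe profiles over libraries that share a treatment and are not a test.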

How the data were processed

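RNA was measured in 12 libraries, grouped by their labels. According to the study's methods, the authors aligned reads with HISAT2 (human build hg38, mouse build GRCm39) and used HTSeq for counting. The deposited files hold whole-number read counts for each gene, not normalized. Versions, annotation and strand setting are not given in the sources used here. Names and coordinates came from GENCODE 44 (human) and vM39 (mouse), which matched 81.9% and 91.1% of the identifiers, with 99.3% and 99.8% of the counts. Some human identifiers are older than that annotation, so coordinates are those of the annotation and not of the count files.

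Each line was tested separately by the quasi-likelihood test of edgeR 4.0.16 under R 4.3.3, after its default filter (filterByExpr) and TMM scaling, with *P* values adjusted by the Benjamini-Hochberg method, and the lines were compared by an interaction term. The fits were tested on simulated data. Alternatives were DESeq2 1.42.0, other scaling, filters and prior counts, a replicate block and leaving out libraries. Standard errors come from the F statistic. Counting intervals are Clopper-Pearson at 95%.

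The genes, lists and tests were chosen with earlier results of these data known. From each list the text names up to 4 called genes per line with the largest change and at least 5 CPM in 1 group, and up to 5 genes of the most alike profile. Any other is marked.

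Same-numbered libraries deviated together (correlations of 0.435, 0.145 and 0.180 for the human line, then 0.251, 0.156 and 0.135 for the mouse line), and every correlation was over 0.1, so by that rule the numbers were taken to pair them, although some libraries of unequal number correlated more (0.226 for human DMSO 2 with ponatinib 3, and 0.176 for mouse DMSO 3 with ponatinib 2). No libraries were copies (chi-square per gene of 2.95 to 16.5 within groups).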

Additional observations from a re-analysis of the deposited data

Results flagged for a closer look

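The response of 3 genes that were tested in both lines, and of *IL1B*, which was not tested in 4T1 by itself, differed between the lines by the interaction of line and treatment (edgeR), as did that of 41.9% of the 12488 genes compared. Values are the log2 fold change in MDA-MB-231 minus that in 4T1. *IL18* rose in both lines and less in MDA-MB-231, with a difference of -1.72 (adjusted *P* 0.000600) that rests on 3 to 10 counts of *Il18* per 4T1 DMSO library. *IL1R1* gave 0.96 (adjusted *P* 0.00430), with higher values in all 3 ponatinib libraries of MDA-MB-231 and lower values in all 3 of 4T1. Its rise in MDA-MB-231 was not called by itself (edgeR adjusted *P* 0.154). Groups without overlap were also found for 60.4% of the genes tested in MDA-MB-231 and 63.4% of those in 4T1. *IL1RAP* gave -0.93 (adjusted *P* 0.0244), with higher values in all 3 ponatinib libraries of 4T1 and overlapping groups in MDA-MB-231. *IL1B* gave -4.20 (adjusted *P* 0.00347), with at most 5 counts of *Il1b* in any 4T1 library. It passed the filter of this comparison through the MDA-MB-231 libraries, where it is high. With scaling factors taken from each line, chosen after seeing the data, the differences of *IL18*, *IL1R1* and *IL1B* were -1.79, 0.89 and -4.27, and *IL1RAP* was called too.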

How the results depend on the processing

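The falls of *IL1A* and *IL1B* and the rise of *IL18* in MDA-MB-231, and the changes of *Il1a*, *Il1rn*, *Il18*, *Il33*, *Il1r1* and *Il1rl1* in 4T1, kept their direction and their call under each alternative that gave a value. Without a block, *IL1R1* and *IL1RAP* in MDA-MB-231 were not called, nor were they with the replicate block (adjusted *P* 0.164 and 0.189), and pairing by replicate number changed no call of the 8 genes. It raised the receptor signal transduction genes that rose in MDA-MB-231 to 5. The log2 fold change of *Il1rap* was 0.71 with DESeq2 and 0.72 without a filter, past the threshold in neither, and 0.59 to 0.87 with 1 library left out. In 4T1 the genes of the 8 that rose numbered 1 with DESeq2 or without a filter, where *Il18* kept its call. They also numbered 1 with at least 10 counts in every library, but there *Il18* was not tested and the gene left was *Il1rap*. With 1 library left out they numbered 1 to 2 (1 without DMSO 1 or 2 or any ponatinib library). Those that fell numbered 3 with at least 10 counts, which removes *Il1a* and *Il1rl1*.

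With DESeq2, 3 inflammasome genes rose in MDA-MB-231 (2 to 4 with 1 library left out). With total counts, 3 receptor signal genes fell in MDA-MB-231 (3 to 6 with 1 library left out), and in 4T1 1 inflammasome gene, 4 receptor signal genes and 2 inhibitors fell. With 1 library left out of 4T1, 1 to 2 other family members (1 without DMSO 3), 1 to 2 inflammasome genes and 4 to 8 receptor signal genes fell, and 3 to 5 receptor signal genes rose; with at least 10 counts, 1 other family member fell. The causes were not tested.

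Between the lines, the difference for *IL1RAP* ranged from -1.14 to -0.81 with 1 library left out. That for *IL18* ranged from -2.35 (without 4T1 DMSO 2) to -1.47 and that for *IL1B* from -5.02 (without 4T1 DMSO 3) to -3.70. The uncalled differences ranged from -0.64 to 0.00 for *IL1A*, reaching 0.00 without 4T1 ponatinib 1, and from -2.75 to 1.18 for *IL1RL1*, turning to -2.75 without MDA-MB-231 ponatinib 2. With the longest transcript as length, *IL1B* made up 83.6% and *Il1r1* 57.2% of the summed level with DMSO.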
